A study of Homo sapiens with 9 samples.

Results

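Transcripts were followed for 9 surface antigen genes that serve as antibody or cell therapy targets or as markers of epithelial cancers, namely CEACAM5, CEACAM6, CD24, MSLN, FOLR1, NECTIN4, CD44, EPCAM and PROM1. They were taken by symbol from a table of 60230 genes, and each of the 9 was found. RNA was sequenced from NCI-H358, an established human lung adenocarcinoma line that is sensitive to sotorasib, a covalent inhibitor of a mutant RAS protein, and from NCI-H358-R, a resistant derivative grown out of it in 250 nM sotorasib over about 2 months. There were 3 states with 3 libraries each: NCI-H358-R sampled 4 days after dosing with 250 nM sotorasib ("on drug"), NCI-H358-R without sotorasib ("off drug"), and untreated parental NCI-H358. The series calls the libraries biological replicates and does not say whether each came from its own culture, and a p-value here reflects no more than library-to-library spread. NCI-H358-R is the only resistant derivative, and resistance cannot be told apart from other ways in which this derivative differs from its parent. The labels leave out the time since drug removal for the off-drug cells, so on drug against off drug holds dosing and withdrawal together, and the pair cannot be told apart.

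As background, these proteins sit on the outer face of epithelial cells, where antibodies, antibody-drug conjugates and engineered T cells can reach them. CEACAM5, CEACAM6, CD24, MSLN and FOLR1 are held in the membrane by a glycosylphosphatidylinositol (GPI) anchor, whereas NECTIN4, CD44 and EPCAM cross the membrane once and PROM1 crosses it several times. CD24 and CD44 are often read together when tumour cells are sorted, and CD44 and PROM1 are used as markers of tumour-initiating cells.

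Each state had its own antigen profile. On drug, CD24, CEACAM6, CEACAM5 and MSLN transcripts stood above both other states, while EPCAM and CD44 stood below both. Off drug, CD44 was at its highest, and NECTIN4, FOLR1 and CD24 were at their lowest. Parental cells had the most EPCAM, NECTIN4 and FOLR1. PROM1 was at or near 0 in all 9 libraries.

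Total estimated counts per library were 33394741 to 34727826 on drug, 25728092 to 33988889 off drug and 25698500 to 31787105 in parental cells. Levels below are CPM (counts scaled to a common library total) scaled with TMM factors, which were 1.11 to 1.12 on drug and 0.917 to 0.972 in the other libraries. Where genes are compared with each other, the deposited TPM values (a share of all transcripts, corrected for transcript length) are used. Of 17307 genes that passed the filter on low counts, 8 were antigen genes; PROM1 did not pass. These are bulk libraries, in which fewer cells carrying a transcript and less of it per cell cannot be told apart.

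Between off drug and parental cells, 2 of the 8 tested antigen genes were called higher and 5 lower with edgeR's quasi-likelihood test at a Benjamini-Hochberg adjusted p under 0.05, against 28.4% of all tested genes called higher, 26.6% lower and 55.0% in either direction. Their CPM ranges did not overlap for 7 of the 8, against 61.9% of all tested genes. Between on drug and off drug, 6 were called higher and 2 lower, against 31.4%, 31.2% and 62.6% of all tested genes in the higher, lower and either direction, and no range of the 8 overlapped, against 67.6% of all tested genes without overlap. Between on drug and parental cells, 4 were called higher and 4 lower, against 33.4%, 32.9% and 66.3% of all tested genes, and again no range of the 8 overlapped, against 69.0%. Most tested genes were called in every comparison, so these counts are not in themselves a result about the antigen genes, and the sizes and directions are given instead. Counts of called genes in the lists below are to be read against the same shares. The median log2 fold change of the 8 was -0.63 off drug over parental, 1.39 on drug over off drug and 0.18 on drug over parental, beside medians of 0.00, 0.02 and 0.02 over all genes tested. The comparisons share libraries and are not independent of each other.

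**Figure D1:**
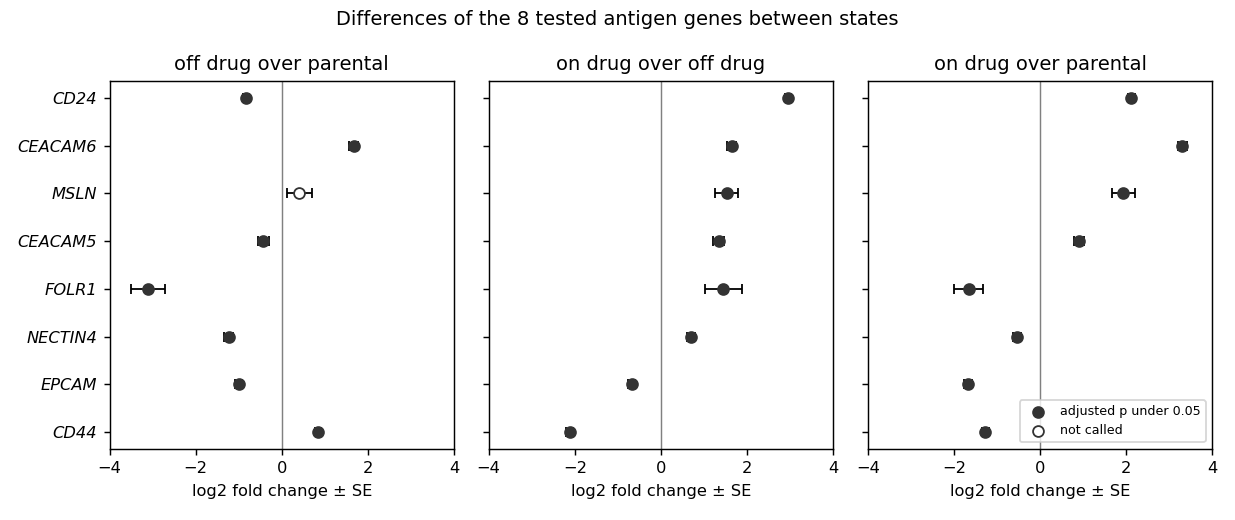
Log2 fold change (horizontal axis, with its standard error as bars) of the 8 tested antigen genes in the 3 comparisons, filled where edgeR's adjusted p was under 0.05. CD24 and CEACAM6 lie farthest to the right on drug, EPCAM and CD44 lie left of 0 in both on-drug panels, and the open point is MSLN off drug over parental, at 0.41.

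CEACAM5, the carcinoembryonic antigen, and CEACAM6, a related adhesion molecule, are neighbours on chromosome 19 of GRCh38, on the plus strand. GENCODE release 29 places CEACAM5 (ENSG00000105388.16 in the deposited table) at chr19:41708585-41729798 and CEACAM6 (ENSG00000086548.9) at chr19:41750977-41772208, leaving 21.2 kb between them. Their promoters are shown because the genes lie side by side and share much of this sequence, yet did not change alike off drug. The RefSeq windows on GRCh38.p14 run from 250 bases before to 50 bases after an annotated start, chr19:41708376-41708675 and chr19:41755280-41755579, both on the plus strand. Of 292 aligned bases, 230 were identical (78.8%), where the other antigen genes with a window had 58.9 to 60.1% identity with the CEACAM5 window. Windows were matched for 6 of the 9 antigen genes, not for EPCAM, MSLN and FOLR1. Capitals mark matches, on either strand, to 5 short motifs: AP-1 (TGANTCA), E-box of the ZEB and SNAI type (CACCTG), TEAD (GGAATG), GC box (GGGCGG) and TATA box (TATAAA).
CEACAM5: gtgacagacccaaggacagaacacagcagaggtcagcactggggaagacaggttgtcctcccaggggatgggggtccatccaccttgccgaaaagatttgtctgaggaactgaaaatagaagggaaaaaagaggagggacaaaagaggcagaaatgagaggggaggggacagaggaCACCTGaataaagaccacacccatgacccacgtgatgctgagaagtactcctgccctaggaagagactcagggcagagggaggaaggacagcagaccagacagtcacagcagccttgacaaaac
CEACAM6: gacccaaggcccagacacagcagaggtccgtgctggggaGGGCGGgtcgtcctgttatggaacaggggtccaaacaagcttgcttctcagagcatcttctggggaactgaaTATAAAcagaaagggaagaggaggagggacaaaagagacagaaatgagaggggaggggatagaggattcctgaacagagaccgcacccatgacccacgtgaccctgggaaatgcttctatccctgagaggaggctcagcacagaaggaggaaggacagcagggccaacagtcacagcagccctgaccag
The CEACAM5 window held an E-box match whose leading base is at position -74 from the start, and the CEACAM6 window held a GC box match at -211 and a TATA box match at -139. Of 35116 RefSeq promoter windows of the same length, 20.6% held the E-box letters, 45.0% the GC box, 11.5% the TATA box, 14.0% the TEAD letters and 7.71% the AP-1 letters. A match is a run of letters and not a measured binding site.

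CEACAM6 was higher in resistant cells than in parental cells, and higher again on drug. Its CPM was 202, 153 and 188 on drug, 62.5, 55.9 and 55.5 off drug, and 17.9, 19.9 and 17.1 in parental cells. The 3 states did not overlap, and the lowest on-drug library stood above every off-drug one. The log2 fold change was 1.64 ± 0.10 (SE) on drug over off drug (edgeR adjusted p = 1.3e-09), 1.67 ± 0.11 off drug over parental (adjusted p = 4.9e-09) and 3.31 ± 0.11 on drug over parental (adjusted p = 1.1e-12), the last a 9.89-fold difference.

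CEACAM5 did not follow its neighbour off drug. Its CPM was 37.5, 25.9 and 34.3 on drug, 14.6, 12.7 and 11.4 off drug, and 16.7, 17.6 and 17.8 in parental cells. All on-drug libraries were above all others, and the off-drug libraries were the lowest. On drug CEACAM5 rose over off drug by a log2 fold change of 1.34 ± 0.13 (edgeR adjusted p = 1.8e-07) and over parental cells by 0.91 ± 0.12 (adjusted p = 9.5e-06). Off drug it fell by 0.43 ± 0.13 on the log2 scale relative to parental cells (adjusted p = 0.011). That last call rests on the scale and on 1 library: on log2(TPM + 1) the difference was -0.21 with a limma adjusted p of 0.37 and the groups overlapped, and without off-drug replicate 3 it was -0.34 with an edgeR adjusted p of 0.061.

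Within each library the CEACAM6 to CEACAM5 ratio of TPM was 7.55, 8.39 and 7.78 on drug, 4.99, 6.25 and 6.97 off drug, and 1.56, 1.62 and 1.36 in parental cells. Resistant libraries in both conditions were above all parental ones, and on-drug libraries were above off-drug ones. On the log2 scale the ratio averaged 2.98 ± 0.08 on drug, 2.59 ± 0.25 off drug and 0.59 ± 0.13 in parental cells (SD, n = 3 each). Each of the 3 differences gave p = 0.1 in an exact two-sided permutation test, the smallest p that 3 libraries against 3 allow. The log2 difference on drug minus off drug was 0.39, and 0.26 without off-drug replicate 1. Estimated counts divide reads that match several transcripts by a model, so the split of reads between 2 such similar genes is uncertain. None of 11 CEACAM pseudogenes in the table held more than 7 counts in any library.

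CEACAM1 and CEACAM19 moved opposite to both CEACAM5 and CEACAM6 on drug over off drug and on drug over parental, and in the direction of CEACAM6 off drug over parental. Of 10 listed relatives 3 were tested, and these 2 of them were called lower on drug over off drug, lower on drug over parental, and higher off drug over parental. CEACAM1, an adhesion receptor with an inhibitory cytoplasmic tail, averaged 3.98 ± 0.81 CPM on drug, 26.6 ± 1.47 off drug and 14.9 ± 0.34 in parental cells. Its log2 fold change was -2.74 on drug over off drug and 0.84 off drug over parental. CEACAM19 fell by 1.20 on drug relative to off drug. CEACAM4, CEACAM7, CEACAM8, CEACAM16 and CEACAM18 had 0 counts in all 9 libraries.

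CD24 is a small, heavily glycosylated surface protein and a ligand of Siglec receptors on macrophages, and CD44 is the main receptor for hyaluronan, an extracellular sugar polymer. CD24 (ENSG00000272398.6) lies at chr6:106969831-106975627 on the minus strand and CD44 (ENSG00000026508.20) at chr11:35138870-35232402 on the plus strand, in GENCODE release 29. Their promoter windows are shown because both genes changed in all 3 comparisons, in opposite directions each time. The windows are chr6:106975578-106975877 on the minus strand and chr11:35138921-35139220 on the plus strand of GRCh38.p14 in RefSeq, with the same motifs in capitals; of 3 windows listed for CD24, the most upstream is shown.
CD24: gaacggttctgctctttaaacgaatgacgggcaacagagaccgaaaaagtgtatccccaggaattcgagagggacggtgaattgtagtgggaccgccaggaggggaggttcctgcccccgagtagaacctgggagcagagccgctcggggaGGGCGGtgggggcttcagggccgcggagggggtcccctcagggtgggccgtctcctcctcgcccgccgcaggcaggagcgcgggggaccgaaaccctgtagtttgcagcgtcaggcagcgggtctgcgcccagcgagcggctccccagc
CD44: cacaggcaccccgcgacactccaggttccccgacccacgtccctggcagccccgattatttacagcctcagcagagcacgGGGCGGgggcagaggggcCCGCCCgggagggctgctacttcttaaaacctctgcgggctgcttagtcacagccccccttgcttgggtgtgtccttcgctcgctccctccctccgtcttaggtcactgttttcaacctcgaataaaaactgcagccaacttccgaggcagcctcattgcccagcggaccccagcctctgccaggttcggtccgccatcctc
The CD24 window held a GC box match at -99 and the CD44 window GC box matches at -170 and -152, a motif in 45.0% of all windows. None of the other 4 motifs matched in either window.

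Among the 8 tested antigen genes, CD24 had the largest rise on drug over off drug. Its CPM was 975, 946 and 976 on drug, 123, 125 and 125 off drug, and 218, 223 and 224 in parental cells. The on-drug libraries were far above the rest, and the off-drug libraries were lowest, with no overlap between states. CD24 rose by a log2 fold change of 2.96 ± 0.07 on drug over off drug, or 7.77-fold (edgeR adjusted p = 3.9e-14), and by 2.12 ± 0.07 on drug over parental (adjusted p = 9.6e-13). Off drug it fell by 0.83 ± 0.07 on the log2 scale relative to parental cells (adjusted p = 7.1e-08). The 4 CD24 pseudogenes in the table held at most 1 count in any library.

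CD44 ran opposite to CD24 throughout. Its CPM was 36.8, 33.1 and 33.0 on drug, 148, 150.3 and 147 off drug, and 85.9, 85.2 and 77.8 in parental cells. Off-drug libraries were highest, on-drug libraries lowest, and no states overlapped. CD44 fell by 2.11 ± 0.08 on the log2 scale on drug relative to off drug (edgeR adjusted p = 3.3e-12), which is 4.33-fold, and by 1.27 ± 0.08 on drug relative to parental (adjusted p = 9.6e-10). Off drug it rose over parental cells by a log2 fold change of 0.84 ± 0.08 (adjusted p = 2.1e-07).

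The CD44 to CD24 ratio of TPM within a library differed widely between states. It was 0.0268, 0.0253 and 0.0223 on drug, 1.19, 1.11 and 1.19 off drug, and 0.337, 0.318 and 0.281 in parental cells. Off drug, CD44 exceeded CD24 per length in all 3 libraries, and in the other 6 libraries CD24 exceeded CD44. The mean log2 ratio was -5.34 ± 0.14 on drug, 0.22 ± 0.06 off drug and -1.68 ± 0.14 in parental cells (SD, n = 3 each). The differences were -5.56 on drug minus off drug, 1.90 off drug minus parental and -3.65 on drug minus parental, each with p = 0.1 in the exact two-sided permutation test, the smallest possible.

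**Figure D2:**
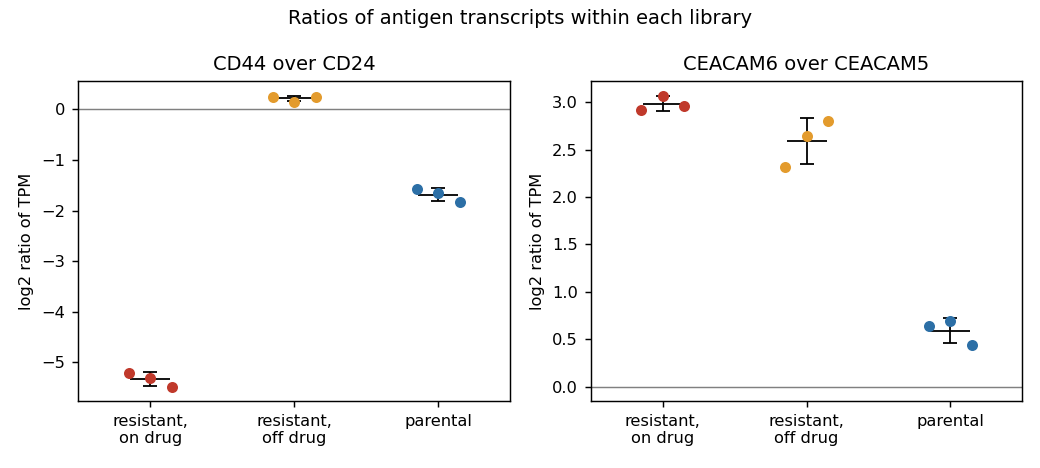
Log2 ratio of TPM (vertical axis) of CD44 over CD24 and of CEACAM6 over CEACAM5 in each of the 9 libraries, with the mean (bar) and SD of 3 libraries per state. The CD44 to CD24 ratio averages -5.34 on drug and 0.22 off drug, and the CEACAM6 to CEACAM5 ratio is above 2 in all resistant libraries and below 1 in all parental ones.

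The implied length of CD44 transcripts also differed. A gene's estimated count divided by its TPM, scaled per library on 525 genes with 1 annotated transcript, gives the average length of the transcripts that the authors' quantification assigned to it; this measure was added after the data had been seen. CD44 has 39 annotated transcripts that differ, among other things, in a run of variable exons. Relative to the parental mean, its implied length was 1.24, 1.21 and 1.33 on drug, 0.863, 0.941 and 0.845 off drug, and 0.949, 0.997 and 1.05 in parental cells. On-drug libraries were all above the others, and off-drug libraries were all below the parental ones. On drug, the implied length was 1.43-fold that off drug, a log2 difference of 0.52 ± 0.06 (limma adjusted p = 0.0052), where 5.80% of 11780 genes measured this way were called. On drug over parental the log2 difference was 0.34 ± 0.06 (limma adjusted p = 0.019, with 19.7% of genes called), but the call was lost, with adjusted p of 0.059 to 0.061, when parental replicate 1 or 2 or on-drug replicate 1 or 3 was left out. Off drug minus parental it was -0.18 ± 0.06 and was not called (limma adjusted p = 0.29, with 0.178% of genes called). CD24, CEACAM5, CEACAM6, EPCAM and NECTIN4 were not called in any of the 3 comparisons of length, and MSLN, FOLR1 and PROM1 had too few counts to be measured. Which CD44 exons were used was not measured, since only values per gene were analysed here.

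**Figure D3:**
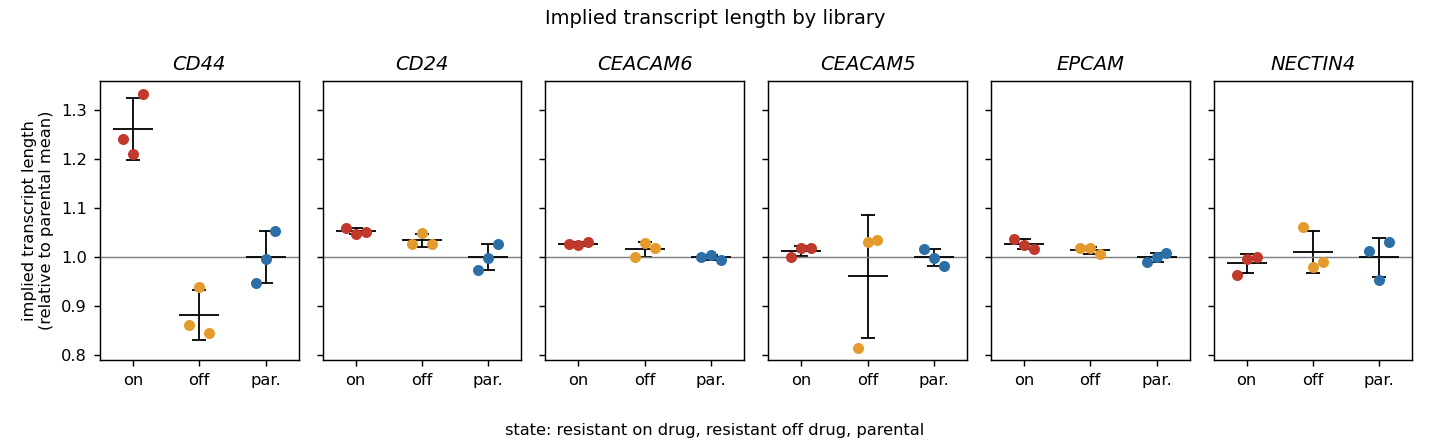
Implied transcript length relative to the parental mean (vertical axis) in each library for the 6 antigen genes with at least 50 counts in every library, with the mean and SD of 3 libraries per state. CD44 stands at 1.26 on drug and 0.883 off drug, while CEACAM5 off drug has 1 low library at 0.816 and 2 near 1.03.

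ESRP1 and ESRP2, epithelial splicing factors known to promote inclusion of CD44 variable exons, belong to the list of CD44-related genes and are named here after their values were seen. ESRP1 averaged 180.5 ± 13.3 CPM on drug, 278 ± 13.4 off drug and 294 ± 15.2 in parental cells, and fell by 0.63 ± 0.08 on the log2 scale on drug relative to off drug (edgeR adjusted p = 5e-06). ESRP2 averaged 58.4 ± 5.02 CPM on drug, 24.7 ± 0.94 off drug and 24.8 ± 2.22 in parental cells, and rose by a log2 fold change of 1.24 ± 0.09 on drug over off drug (adjusted p = 9.8e-09). Their part in the CD44 length difference was not tested. Of 13 tested genes for hyaluronan synthesis, hyaluronan breakdown, other CD44 ligands, CD44 cleavage and splicing, 1 was called higher and 8 lower on drug over off drug (median log2 fold change -0.63), 4 higher and 7 lower off drug over parental (-0.26), and 3 higher and 9 lower on drug over parental (-0.55). The shares of all tested genes were 31.4% higher and 31.2% lower, 28.4% and 26.6%, and 33.4% and 32.9% in these 3 comparisons. SPP1, which encodes the CD44 ligand osteopontin, averaged 3.43 ± 0.56 CPM on drug, 65.7 ± 3.02 off drug and 308 ± 15.7 in parental cells. CEMIP, a hyaluronan-degrading factor, averaged 1.42 ± 0.37 CPM on drug, 11.8 ± 3.48 off drug and 100.4 ± 10.3 in parental cells. MMP14, a membrane protease that can cleave CD44, rose off drug over parental by a log2 fold change of 3.11. Its CPM averaged 8.08 ± 1.24 on drug, 29.9 ± 0.56 off drug and 3.46 ± 0.71 in parental cells.

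EPCAM, a homophilic adhesion molecule of epithelia, is at chr2:47345158-47387601 on the plus strand (ENSG00000119888.11). Its CPM was 264, 252 and 256 on drug, 397, 429 and 407 off drug, and 764, 783 and 919 in parental cells. Parental libraries were the highest and on-drug libraries the lowest, without overlap. EPCAM fell by 0.68 ± 0.08 on the log2 scale on drug relative to off drug (edgeR adjusted p = 3.3e-06), by 1.00 ± 0.08 off drug relative to parental (adjusted p = 6.7e-08), and by 1.68 ± 0.08 on drug relative to parental (adjusted p = 8.3e-11). The total on-drug decrease is 3.19-fold.

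Partners, cleaving enzymes and relatives of EPCAM were counted beside it. Of 14 tested, 1 was called higher and 9 lower off drug over parental (median log2 fold change -0.40), 4 higher and 5 lower on drug over off drug (-0.06), and 4 higher and 8 lower on drug over parental (-0.29). In either direction, 55.0%, 62.6% and 66.3% of all tested genes were called in these comparisons. CLDN1, a tight junction claudin, fell by 1.70 off drug relative to parental and rose by 2.03 on drug over off drug. SPINT1, an inhibitor of the membrane protease that ST14 encodes, fell by 1.46 on drug relative to parental, and ST14 itself rose by 1.27 on drug over off drug. Of 10 general epithelial markers such as keratins and CDH1, all were tested, and 3 were called higher and 6 lower on drug over parental, 3 higher and 4 lower on drug over off drug, and 1 higher and 3 lower off drug over parental. All tested genes were called at 66.3%, 62.6% and 55.0% in that order of comparisons. KRT19 averaged 816 ± 97.5 CPM on drug, 2251 ± 46.0 off drug and 2293 ± 303 in parental cells. OVOL2 and CDH1 were instead highest on drug. OVOL2 averaged 22.5 ± 1.26 CPM on drug, 12.3 ± 0.60 off drug and 13.2 ± 0.55 in parental cells. CDH1 averaged 318 ± 51.0, 223 ± 17.0 and 259 ± 4.86 CPM in the same order. Their part in the EPCAM differences was not tested.

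MSLN, which encodes mesothelin, a protein of the mesothelial lining that many carcinomas express, is at chr16:760762-768865 on the plus strand (ENSG00000102854.16). Its CPM was 7.66, 7.32 and 7.53 on drug, 3.41, 1.97 and 2.44 off drug, and 1.28, 3.29 and 1.41 in parental cells. The on-drug libraries were above all others, and off-drug and parental libraries overlapped. MSLN rose on drug by a log2 fold change of 1.53 ± 0.26 over off drug (edgeR adjusted p = 0.00011) and 1.93 ± 0.27 over parental cells (adjusted p = 1.3e-05). Off drug over parental the log2 fold change was 0.41 ± 0.30 and was not called (adjusted p = 0.26). That value turns on 1 library: parental replicate 2 was above both other parental libraries and above 2 of the 3 off-drug ones, and without it the log2 fold change was 0.95 with an adjusted p of 0.0041. Of 6 mesothelial markers, WT1 was at 0 in all libraries and 2 were tested. CALB2, which encodes calretinin, averaged 0.168 ± 0.109 CPM on drug, 93.9 ± 3.56 off drug and 31.6 ± 2.24 in parental cells, the reverse of MSLN on drug, and UPK3B averaged 2.78 CPM on drug, 0.99 off drug and 1.30 in parental cells. The summed CPM of the 6 was 2.88 to 3.08 on drug, 92.3 to 99.4 off drug and 31.4 to 35.7 in parental cells. The part of mesothelial genes in the MSLN differences was not tested.

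FOLR1, folate receptor alpha, is at chr11:72189558-72196323 on the plus strand (ENSG00000110195.14) and was scarce. Its estimated counts were 27, 26 and 25 on drug, 2, 11 and 6.51 off drug, and 61.0, 65 and 52.1 in parental cells. In CPM this is 0.706, 0.700 and 0.647 on drug, 0.0794, 0.450 and 0.225 off drug, and 2.00, 2.60 and 1.94 in parental cells. Parental libraries were highest and off-drug libraries lowest, with no overlap, although off-drug replicate 1 held only 2 counts, under the floor of 3 counts used here. FOLR1 fell off drug by 3.11 ± 0.40 on the log2 scale relative to parental (edgeR adjusted p = 8.8e-06) and on drug by 1.66 ± 0.34 relative to parental (adjusted p = 0.00042), and rose on drug over off drug by 1.45 ± 0.43 (adjusted p = 0.0086). The size depended on single off-drug libraries and on the scale: without off-drug replicate 2 the log2 fold change was 2.09 on drug over off drug and -3.76 off drug over parental, and without off-drug replicate 1 it was 1.05 on drug over off drug (adjusted p = 0.041). On log2(TPM + 1), which understates changes of scarce genes, the differences were 0.64 on drug over off drug, -1.58 off drug over parental and -0.93 on drug over parental, all still called by limma.

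Folate carriers and enzymes took mixed courses. Of 6 tested of 9 listed, 4 were called higher and 2 lower on drug over off drug, 2 higher and 1 lower off drug over parental, and 3 higher and 1 lower on drug over parental. For all tested genes, 62.6%, 55.0% and 66.3% were called in either direction in these comparisons. SLC19A1, the reduced folate carrier, rose by a log2 fold change of 0.86 on drug over off drug and 1.07 on drug over parental. SLC46A1, the proton-coupled folate transporter, fell by 1.09 off drug relative to parental and by 0.50 on drug relative to parental, as FOLR1 did. The other folate receptor genes were scarcer than FOLR1: FOLR3 and IZUMO1R had 0 counts in all libraries and FOLR2 had at most 3.

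NECTIN4, an immunoglobulin-like adhesion molecule and the target of an approved antibody-drug conjugate, is at chr1:161070995-161089599 on the minus strand (ENSG00000143217.9). Its CPM was 83.3, 73.6 and 87.8 on drug, 47.4, 53.8 and 49.8 off drug, and 113, 109 and 134 in parental cells. Off-drug libraries were lowest and parental libraries highest, without overlap. NECTIN4 rose by a log2 fold change of 0.70 ± 0.10 on drug over off drug (edgeR adjusted p = 1.3e-05) and fell by 1.24 ± 0.10 off drug relative to parental (adjusted p = 4.1e-08). On drug it fell by 0.54 ± 0.10 relative to parental (adjusted p = 0.00013), a call that ended on the TPM scale, where the log2 difference was -0.17 (limma adjusted p = 0.23) and the on-drug range of 29.1 to 37.6 TPM overlapped the parental range of 36.5 to 40.6.

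Other nectins and nectin-like genes took different courses. Of 8 tested of 9 listed, 3 were called higher and 2 lower off drug over parental, 1 higher and 3 lower on drug over off drug, and 4 higher and 4 lower on drug over parental. Calls in either direction made up 55.0%, 62.6% and 66.3% of all tested genes in these comparisons. CADM1, counted as called lower off drug and on drug over parental, passed the filter on low counts only through the parental libraries. It averaged 0.00872 CPM on drug, 0.0372 off drug and 0.600 in parental cells. NECTIN1, which NECTIN4 binds in trans, averaged 5.23 ± 0.23 CPM on drug, 20.2 ± 2.31 off drug and 111 ± 12.1 in parental cells. PVR, the poliovirus receptor and a ligand of TIGIT, averaged 89.9 ± 7.98 CPM on drug, 263 ± 8.45 off drug and 124 ± 2.84 in parental cells. AFDN, the afadin gene, whose product ties nectins to actin, rose off drug over parental by a log2 fold change of 0.75.

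PROM1, which encodes prominin-1, is at chr4:15963076-16084378 on the minus strand (ENSG00000007062.12) and was not tested. Its estimated counts were 1, 3 and 0 on drug, 0, 0 and 4 off drug, and 0 in all 3 parental libraries. A count of 0 allows up to 3 counts, or 0.0864 to 0.117 CPM of the unscaled library totals. Only off-drug replicate 3, at 4 counts, exceeded this. PROM1 was thus at or near the detection limit in every state, and no difference was detectable at this depth. Such limits cover counting error only. Among 10 tested genes for prominin-2 and other stem cell or mesenchymal surface markers, 3 were called higher and 6 lower on drug over off drug, 5 higher and 3 lower off drug over parental, and 2 higher and 6 lower on drug over parental. Over all tested genes, 62.6%, 55.0% and 66.3% were called in either direction in these comparisons. THY1 and CXCR4, counted as called higher in all 3 comparisons, passed the filter on low counts only through the on-drug libraries. THY1 averaged 0.874 CPM on drug, 0.306 off drug and 0 in parental cells, and CXCR4 1.08, 0.389 and 0.0714. PROM2, the paralogue of PROM1, averaged 114 ± 10.0 CPM on drug, 139 ± 9.12 off drug and 356 ± 14.3 in parental cells. NT5E, an ecto-nucleotidase, averaged 96.0 CPM on drug, 1257 off drug and 576 in parental cells, with SDs of at most 55.9, the same order of states as CD44. ITGA6, a laminin-binding integrin, averaged 36.5 ± 3.92 CPM on drug, 459 ± 23.3 off drug and 284 ± 17.8 in parental cells, also in that order.

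**Figure D4:**
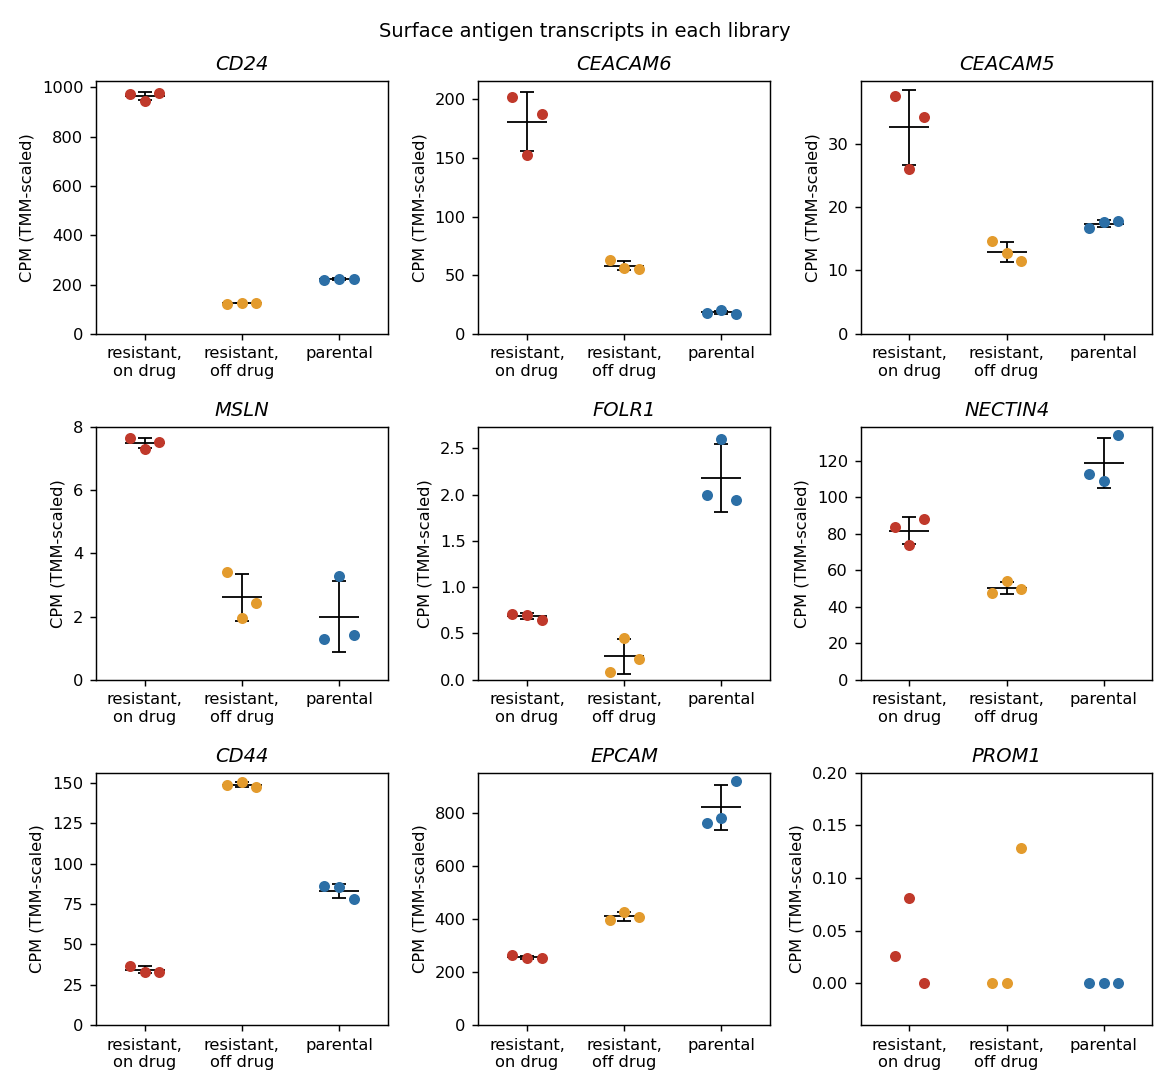
TMM-scaled CPM (vertical axis, starting at 0 except for PROM1, whose axis starts just below 0) of the 9 antigen genes in each library, by state, with the mean (bar) and SD of 3 libraries; for PROM1 only the libraries are drawn. CD24, CEACAM6, CEACAM5 and MSLN are highest on drug, CD44 is highest off drug, and EPCAM, NECTIN4 and FOLR1 are highest in parental cells.

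Per length, the order of the antigen genes changed between states. On drug, mean TPM ran from CD24 (724 ± 42.6) through EPCAM (251 ± 16.5), CEACAM6 (107 ± 19.8), NECTIN4 (34.2 ± 4.52), CD44 (17.9 ± 2.28), CEACAM5 (13.6 ± 3.20) and MSLN (5.04 ± 0.20) to FOLR1 (1.13 ± 0.07). CD44 and CEACAM5 were the neighbours in that order whose libraries overlapped. Off drug, the order was EPCAM (347 ± 25.1), CD44 (94.3 ± 2.83), CD24 (81.0 ± 3.12), CEACAM6 (29.6 ± 3.10), NECTIN4 (17.7 ± 2.23), CEACAM5 (4.95 ± 1.41), MSLN (1.25 ± 0.43) and FOLR1 (0.39 ± 0.31), with no overlap between neighbours. In parental cells it was EPCAM (649 ± 37.6), CD24 (138 ± 7.25), CD44 (43.2 ± 5.84), NECTIN4 (38.6 ± 2.04), CEACAM6 (8.78 ± 1.01), CEACAM5 (5.76 ± 0.29), FOLR1 (3.10 ± 0.64) and MSLN (0.92 ± 0.31), where CD44 and NECTIN4 overlapped. CD24 led on drug, and EPCAM led in both other states. The TPM of CD24 was above that of 98.8% of tested genes on drug, 91.2% off drug and 95.2% in parental cells. CEACAM6 stood above 93.2% of tested genes on drug, 78.8% off drug and 58.7% in parental cells.

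The summed TPM of the 9 genes was 1154 ± 87.9 on drug, 576 ± 31.1 off drug and 888 ± 29.2 in parental cells (SD, n = 3 each). EPCAM made up 21.8 ± 0.30% of that sum on drug, 60.2 ± 1.45% off drug and 73.1 ± 2.04% in parental cells. CD24 made up 62.8 ± 1.10% on drug, 14.1 ± 0.27% off drug and 15.6 ± 1.16% in parental cells. CD44 held 16.4 ± 0.93% off drug, more than in any on-drug or parental library, and CEACAM6 held 9.22 ± 1.03% on drug, against 0.99 ± 0.12% in parental cells. These shares sum to a fixed total, so a rise of 1 gene lowers the shares of the rest.

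**Figure D5:**
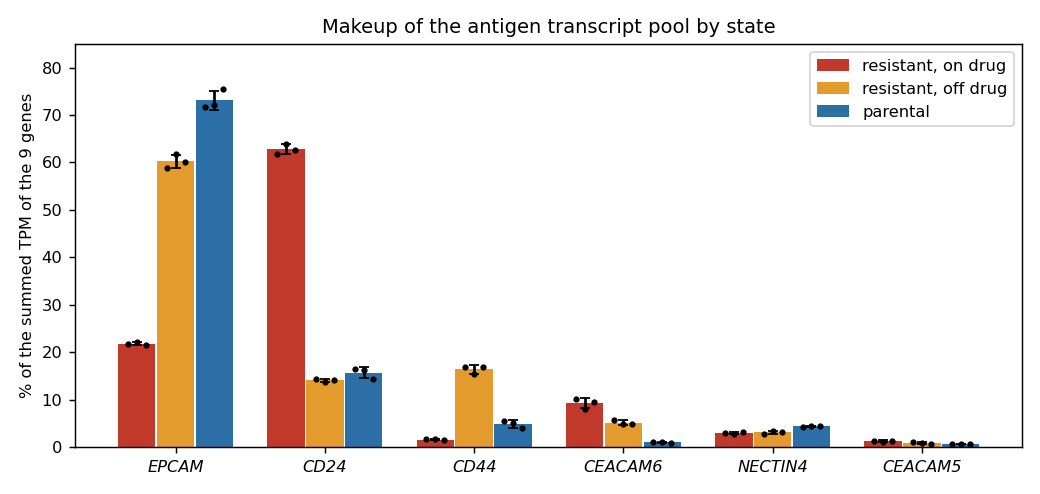
Share of the summed TPM of the 9 antigen genes (vertical axis, percent) taken by each of the 6 most abundant genes, as the mean (bar), SD (error bar) and single libraries (dots) of each state. CD24 holds 62.8% on drug, where EPCAM holds 60.2% off drug and 73.1% in parental cells.

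For each tested antigen gene, the other genes with the most similar profile were found by the Pearson correlation of log2 CPM over the 9 libraries. These values are descriptions over libraries that share 3 states and a common scaling, and similarity of profile says nothing about function. KIF21B (r = 0.999) and PRRC1 (0.998) were most like CD44, and KIF21B averaged 4.81 CPM on drug, 106 off drug and 33.9 in parental cells. LBH (0.998) was among the closest to CD24, CDC25A (0.998) and SLCO2A1 (0.998) to CEACAM6, and C17orf58 (0.998) and NIPSNAP1 (0.998) to EPCAM. PITX1 (0.994) and TRPM4 (0.990) were closest to NECTIN4, KLHL22 (0.990) to CEACAM5, HOOK2 (0.985) to FOLR1 and RNF144A (0.969) to MSLN. No antigen gene was the closest match of another.

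Other surface proteins targeted by antibodies or cell therapies were counted for comparison. Of 31 tested of 36 listed, 16 were called higher and 9 lower on drug over off drug (median log2 fold change 0.53), 12 higher and 11 lower off drug over parental (-0.03), and 15 higher and 11 lower on drug over parental (0.30). Among all tested genes, 31.4% were called higher and 31.2% lower, 28.4% and 26.6%, and 33.4% and 32.9% in these 3 comparisons. GPNMB, a melanosomal and lysosomal glycoprotein, averaged 25.2 ± 2.55 CPM on drug and 0.95 ± 0.51 off drug, a rise of 4.78 on the log2 scale. Both directions occurred among these targets in each comparison. VTCN1, an inhibitory B7 family member, averaged 10.5 ± 1.05 CPM on drug, 0.0535 ± 0.0927 off drug and 0.286 ± 0.158 in parental cells. It passed the filter on low counts only through the on-drug libraries, as did SLC34A2. Both are among the targets counted as called higher on drug. CD274, which encodes PD-L1, averaged 9.68 ± 1.06 CPM on drug and 66.9 ± 2.98 off drug, a fall, as for CD44. AXL, a receptor tyrosine kinase, averaged 64.2 ± 1.80 CPM on drug, 93.4 ± 2.33 off drug and 3.54 ± 0.56 in parental cells. SLC44A4 averaged 1.60 ± 0.44 CPM on drug, 1.66 ± 0.48 off drug and 17.6 ± 0.18 in parental cells.

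Since 5 of the 9 antigens carry a GPI anchor, the genes that build and attach it were also counted. Of 27 tested, 14 were called higher and 5 lower on drug over off drug (median log2 fold change 0.39), 4 higher and 12 lower off drug over parental (-0.12), and 12 higher and 9 lower on drug over parental (0.06). Beside this, 31.4% of all tested genes were called higher and 31.2% lower, 28.4% and 26.6%, and 33.4% and 32.9% in these comparisons. PIGQ, of the complex that starts anchor synthesis, rose by 1.69 on drug over off drug, and PGAP3, which remodels the anchor's lipid, by 1.31. PIGL, the deacetylase of the next step, fell by 1.27 on drug relative to off drug. Library-size scaling without TMM factors gave a median log2 fold change over all tested genes of 0.27 on drug over off drug, against 0.016 with them, and a list median of this size is to be read against that shift; the calls of the antigen genes on drug over off drug held under it.

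The line's identity as lung epithelium and possible other cells were read from marker lists. Of 9 lung lineage markers 4 were tested, and NKX2-1, NAPSA and LAMP3 were called higher on drug over off drug and over parental; the remaining one, SLC34A2, passed the filter on low counts only through the on-drug libraries. SFTPB, a surfactant protein gene, had 0 counts in all libraries, and SFTPC, SFTPA1, SCGB1A1 and SCGB3A2 had at most 3 counts in any library. NKX2-1, the lung lineage transcription factor, averaged 134 ± 10.6 CPM on drug, 30.7 ± 1.35 off drug and 65.2 ± 2.58 in parental cells, the same order of states as CD24. Of 7 fibroblast markers 6 were tested, and LUM and COL1A1 were called higher on drug over off drug and over parental. COL3A1 averaged 4.68 CPM on drug and had 0 counts in all off-drug and parental libraries, so it passed the filter only through the on-drug libraries, as COL1A2 did at 0.517 CPM on drug, 0.0380 off drug and 0.0134 in parental cells. The summed CPM of the 7 was 126 to 158 on drug, 17.9 to 18.6 off drug and 27.0 to 31.1 in parental cells, and LUM alone averaged 89.3 ± 18.9 CPM on drug, 2.05 ± 0.62 off drug and 2.21 ± 0.41 in parental cells. The summed CPM of 6 endothelial markers, of which CLDN5 had at most 3 counts in any library, was 13.9 to 18.7 on drug, 26.2 to 27.9 off drug and 9.90 to 12.9 in parental cells. That sum was mostly KDR, at 11.9 CPM on drug, 20.5 off drug and 10.1 in parental cells. Of 5 endothelial markers tested on drug over off drug, VWF was called higher and KDR and PECAM1 lower. CDH5 was also called higher, but it passed the filter on low counts only through the on-drug libraries. It averaged 2.08 CPM on drug, 0.222 off drug and 0.243 in parental cells. The summed CPM of 8 leukocyte markers was 6.90 to 8.29 on drug, 72.3 to 77.0 off drug and 58.7 to 68.4 in parental cells, nearly all of it CD68, while MS4A1 was at 0 in all libraries and CD3E had at most 3 counts in any. The part of such markers in the antigen differences was not tested.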

How the data were processed

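Poly(A) RNA from 9 libraries was sequenced. The authors deposited estimated counts, 1 value per gene and library without depth scaling, and the authors also deposited TPM values, which correct for transcript length and depth. The submitters' processing notes list Salmon 0.14.1, bcl2fastq 2.17 and FastQC 0.12.1 beside the build GRCh38.p13, and assign them no role. Annotation release, strand setting and the summing of transcripts to genes were not given in the sources used here, so shared reads cannot be traced. The tables give gene identifiers, and symbols were matched without the version for 60089 of 60230 genes. Positions come from GENCODE release 29 (GRCh38).

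The estimated counts were rounded to whole numbers for the count tests. All 9 libraries were fitted together with edgeR 4.0.16 in R 4.3.3, with a mean per state, TMM scaling and filterByExpr (minimum count 10, minimum total 15), which left 17307 genes and 6 residual degrees of freedom. The common biological coefficient of variation was 0.0946. Calls needed an adjusted p under 0.05 (Benjamini-Hochberg, all tested genes), and each standard error divides the log2 fold change by the root of its F statistic. Every adjusted p in the text is from this fit unless limma 3.58.1 or DESeq2 1.42.0 is named. CPM values are TMM-scaled. Ratios of TPM were compared with exact permutation tests. Implied transcript lengths were tested with limma for 11780 genes with at least 50 counts in every library. Over the 525 genes with 1 annotated transcript, the median range of the scaled value across libraries was 0.0961 on the log2 scale. The script was tested on simulated data. No libraries of a state agreed within counting noise.

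The members and gene lists were chosen with earlier results of these data known. All 9 members are named in every comparison. From each list the text names up to 3 called genes per comparison that changed most and averaged log2 CPM 1 or more, and for each member the most similar genes that averaged log2 CPM 2 or more. Some genes that this rule would name are not reported here. Alternatives were other scalings and filters, DESeq2, limma on voom weights or on log2 TPM with a pseudocount of 1 or 0.1, leaving out each library, and a block on the replicate number.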

Additional observations from a re-analysis of the deposited data

How the results depend on the processing

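Over 504 results of the 8 tested antigen genes under alternatives, 496 kept their direction and their side of the threshold, 7 lost the call, 1 gained it and 0 reversed. The calls lost were CEACAM5 off drug over parental, at -0.21 on log2(TPM + 1) (limma adjusted p = 0.37), -0.25 on log2(TPM + 0.1) and -0.21 without a filter on low TPM, and at -0.34 without off-drug replicate 3 (edgeR adjusted p = 0.061), the highest of a range from -0.52 to -0.34 when each library was left out; and NECTIN4 on drug over parental, at -0.17 on log2(TPM + 1), -0.18 on log2(TPM + 0.1) and -0.17 without a filter. The call gained was MSLN off drug over parental, which ran from 0.16 to 0.95 when each library was left out and was called without parental replicate 2. The implied CD44 length on drug over parental ran from 0.30 to 0.37 when each library was left out. Differences in the log2 ratio of CD44 to CD24 on the CPM scale were 1.67 off drug minus parental, -5.07 on drug minus off drug and -3.40 on drug minus parental.

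Over all genes, TPM-based fits called fewer genes lower. These fits kept genes by their TPM and not by counts, so the numbers come from gene sets unlike edgeR's. Off drug over parental, 2541 were called lower on log2(TPM + 1), 2492 on log2(TPM + 0.1) and 2806 without a filter, against 4602 in edgeR. On drug over off drug these numbers were 2937, 2860 and 3058, and 3585 with library size scaling alone, against 5403. On drug over parental they were 2764, 2713 and 3182, against 5690. Of all calls on log2(TPM + 1), 64.1%, 64.2% and 70.0% were higher in these 3 comparisons, against 51.6%, 50.1% and 50.4% in edgeR, and the median of all genes moved to 0.13, 0.16 and 0.27. With library size alone, 68.5% of calls were higher on drug over off drug and 64.3% on drug over parental, and those medians were 0.27 and 0.24. Upper-quartile factors moved the other way off drug over parental, where 43.4% of calls were higher and the median was -0.087. On drug over off drug these factors also moved calls up, to 60.0% higher with a median of 0.15, and on drug over parental to 53.3% with 0.059. The cause of these shifts was not tested.

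With the replicate number as a block, 4906 genes were called higher and 4537 lower off drug over parental, 5383 and 5375 on drug over off drug, and 5768 and 5649 on drug over parental. No clear pairing of libraries by number was seen. Deviations correlated between -0.034 and 0.135 for the same number and between -0.0995 and 0.0668 for different numbers. A library was closest to its own number in 6 of 18 checks. So few libraries cannot show that pairing is absent. No call of an antigen gene changed under the block. FOLR1 rests on 2 to 65 counts per library.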
